A study of Homo sapiens with 24 samples.

Results

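The major histocompatibility region was taken as chr6:29690001-33115000 on hg19, a window of 3425 kb. Its members were all peaks or regions of the 18 deposited lists that overlap this window by at least 1 bp, a choice that uses positions and no measured value. There were 2834 of them among 1483402 in all lists. Class I, from HLA-F to HLA-B, covers 29690 to 31330 kb and held 1327 members. Class III, from 31480 to 32370 kb, held 782. Class II, from 32370 kb to HLA-DPB1 at 33115 kb, held 607. The other members lie in the 150 kb between class I and class III. A member that crosses an edge between segments is counted in each segment it overlaps.

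The lists were made by ChIP-seq, which sequences the DNA bound to an immunoprecipitated protein or histone mark, in the established bladder cancer cell line UMUC1. The titles label the UTX and MLL4 samples mnase and all histone samples sonic, and each kind has inputs of its own. This difference in preparation cannot be told apart from the difference between UTX or MLL4 and the histone marks. All 3 groups are stable derivatives with a pSIN-puro construct, harvested 3 days after plating. EV cells hold an empty vector, WT cells wild-type UTX and HEAA cells UTX with H1146A and E1148A, so each line also carries the puromycin-resistance vector. The labels do not say whether a line is a clone or a pool. UTX, MLL4, H3K27me3 and H3K4me1 have 1 list per line and therefore no replicate error, and H3K27ac has 2 numbered libraries per line. UTX peaks are named as merged without saying of what, so a UTX list may rest on more than 1 library. A list holds called regions and not reads, so the read depth is unknown and a base outside a region is one below the caller's threshold.

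The region is known for its density of immune genes. Class I genes encode heavy chains that present peptides from inside the cell on nearly all nucleated cells. Class II genes encode the chains that present peptides taken up from outside, mainly on professional antigen-presenting cells, and epithelial cells can gain them under interferon gamma. Class III holds no antigen-presenting molecules but complement components, cytokines of the tumour necrosis factor family and many widely expressed genes. In the RefSeq gene order (GRCh38.p14), 47 protein-coding genes run from HLA-F to HLA-B, 63 follow before HLA-DRA, and 18 run from HLA-DRA to HLA-DPB1. The segments are set by position, and no called region was assigned to a gene. A mark in a class therefore need not lie at a gene of an antigen-presenting chain. H3K27ac marks active promoters and enhancers, H3K4me1 marks enhancers and the flanks of promoters, and H3K27me3 is the repressive mark laid down by Polycomb complexes. UTX (KDM6A) removes methyl groups from H3K27 and is a subunit of the complex of the H3K4 methyltransferase MLL4 (KMT2D).

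The promoters of the 3 genes that name the edges of class I and class II are shown as the landmarks of the window. The sequences are the 200 bases before the start site in RefSeq on GRCh38.p14, 5′ to 3′ on the gene's strand. Capitals mark CCAAT, the letters of the Y box that class I and class II promoters share, and its reverse complement ATTGG.
HLA-F: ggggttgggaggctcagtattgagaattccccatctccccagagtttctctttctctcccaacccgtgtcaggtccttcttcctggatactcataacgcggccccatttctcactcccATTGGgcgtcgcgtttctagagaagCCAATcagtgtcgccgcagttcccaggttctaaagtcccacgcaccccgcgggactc
HLA-B: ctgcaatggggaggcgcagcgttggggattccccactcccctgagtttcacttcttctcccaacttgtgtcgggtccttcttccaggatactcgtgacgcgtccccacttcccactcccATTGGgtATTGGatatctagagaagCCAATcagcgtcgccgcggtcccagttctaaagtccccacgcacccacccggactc
HLA-DPB1: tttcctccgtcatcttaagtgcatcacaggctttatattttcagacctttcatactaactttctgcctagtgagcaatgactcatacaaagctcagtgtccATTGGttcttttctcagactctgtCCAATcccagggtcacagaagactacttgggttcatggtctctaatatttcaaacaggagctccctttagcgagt
HLA-F and HLA-DPB1 each hold 1 CCAAT and 1 ATTGG, counted on the printed strand, and HLA-B holds 1 CCAAT and 2 ATTGG. Of 35116 promoters of this length, 9844 (28.0%) hold the letters on either strand. A match describes the letters only. The called regions are on another build, so none was assigned to these promoters or to any gene.

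The first comparison asked how the active mark is spread over the classes. H3K27ac was densest in class III, lower in class I and lowest in class II, in that order in each of the 6 libraries. Coverage is the percentage of a segment's bases that lie inside a called region. In class III it was 9.33% and 10.2% in the EV libraries 1 and 2, 11.3% and 8.11% in WT, and 11.2% and 6.94% in HEAA. In class I it was 7.37% and 6.87% in EV, 8.27% and 6.24% in WT, and 9.10% and 5.30% in HEAA. In class II it was 2.25% and 2.24% in EV, 3.03% and 1.67% in WT, and 2.86% and 1.54% in HEAA. The highest class II library is below the lowest class I library, while the ranges of class I and class III overlap between libraries.

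Compared within libraries, class III exceeded class I by 2.31 ± 0.670 percentage points (SD, n = 6), with single differences from 1.64 to 3.29. It exceeded class II by 7.24 ± 1.16 points, and class I exceeded class II by 4.93 ± 0.832 points. The window as a whole, at 6.55% ± 1.25 (SD, n = 6), exceeded the rest of chromosome 6, at 2.30% ± 0.744, by 4.25 ± 0.573 points. Each of these 4 differences had p = 0.03125 in an exact two-sided sign-flip test over the 6 libraries. This is the smallest p that 6 libraries can give, and it was also 0.03125 after Benjamini-Hochberg adjustment over the 4. The 6 libraries come from lines of 1 cell line, so the test measures only how repeatable the order is among them. Without any 1 library no test can reach 0.05. No label tells whether libraries 1 and 2 of a line are separate cultures, so the spread may be technical.

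**Figure D1:**
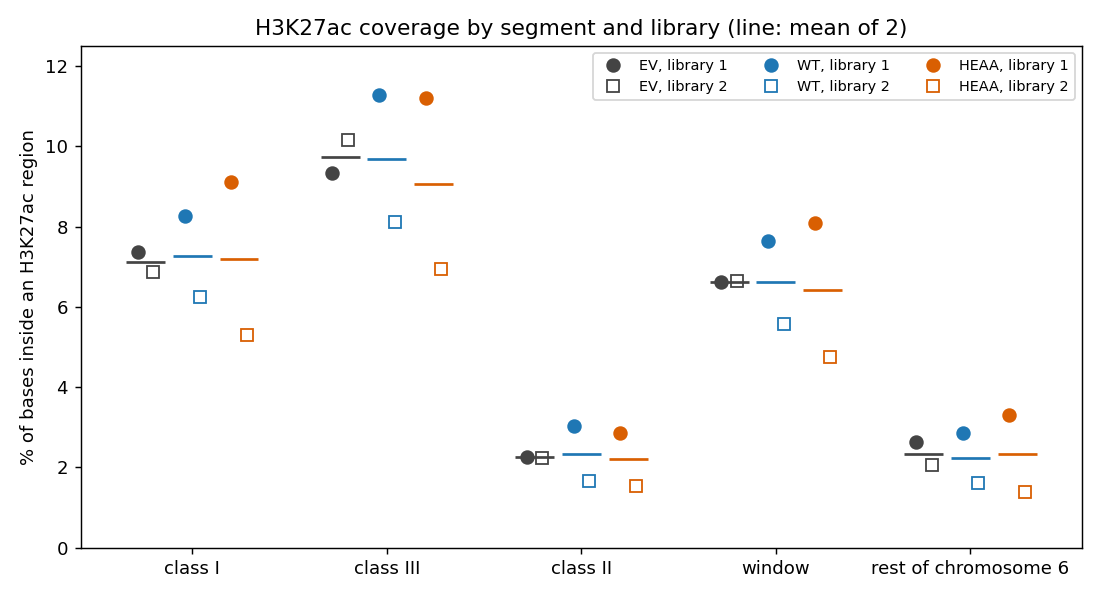
Percentage of bases inside an H3K27ac region (vertical axis) for each segment, the window and the rest of chromosome 6, with 1 point per library (circles, number 1; squares, number 2) and a bar at the mean of the 2 libraries of a line. Class II sits between 1.54% and 3.03% and class III between 6.94% and 11.3%; the number 1 libraries of WT and HEAA are above those of number 2.

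The excess over the rest of the chromosome belongs to class I and class III. Per library, class I coverage was 2.76 to 3.86 times that of the rest of chromosome 6, and class III coverage 3.40 to 5.04 times. Class II coverage was 0.859 to 1.12 times that of the rest of the chromosome, with 2 libraries below it and 4 above it. Against all chromosomes it was lower in each of the 6 libraries, at 0.754 to 0.942 times. For the whole window the ratio ran from 2.46 to 3.45, and was higher in each number 2 library (3.22 to 3.45) than in each number 1 library (2.46 to 2.69). The number 2 lists are shorter, and what sets this difference was not tested.

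Acetylation was uneven inside each class. In steps of 250 kb, the highest coverage lay in class I from 30690 to 30940 kb, at 17.7% ± 3.77 (SD, n = 6), and next to it from 30440 to 30690 kb, at 13.2% ± 2.06. The class III part from 31690 to 31940 kb had 15.1% ± 2.65 and the next step 11.4% ± 2.57. In contrast, the steps from 32190 to 32440 kb and from 32440 to 32690 kb, which span the end of class III and the first part of class II, had 0.0254% ± 0.0394 and 0.176% ± 0.331. The acetylation of class II lay mainly in the step from 32690 to 32940 kb, at 5.80% ± 1.26. Of the 29 bins of 25 kb in class II, 23 had no H3K27ac in EV, against 21 of 66 in class I and 11 of 36 in class III.

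**Figure D2:**
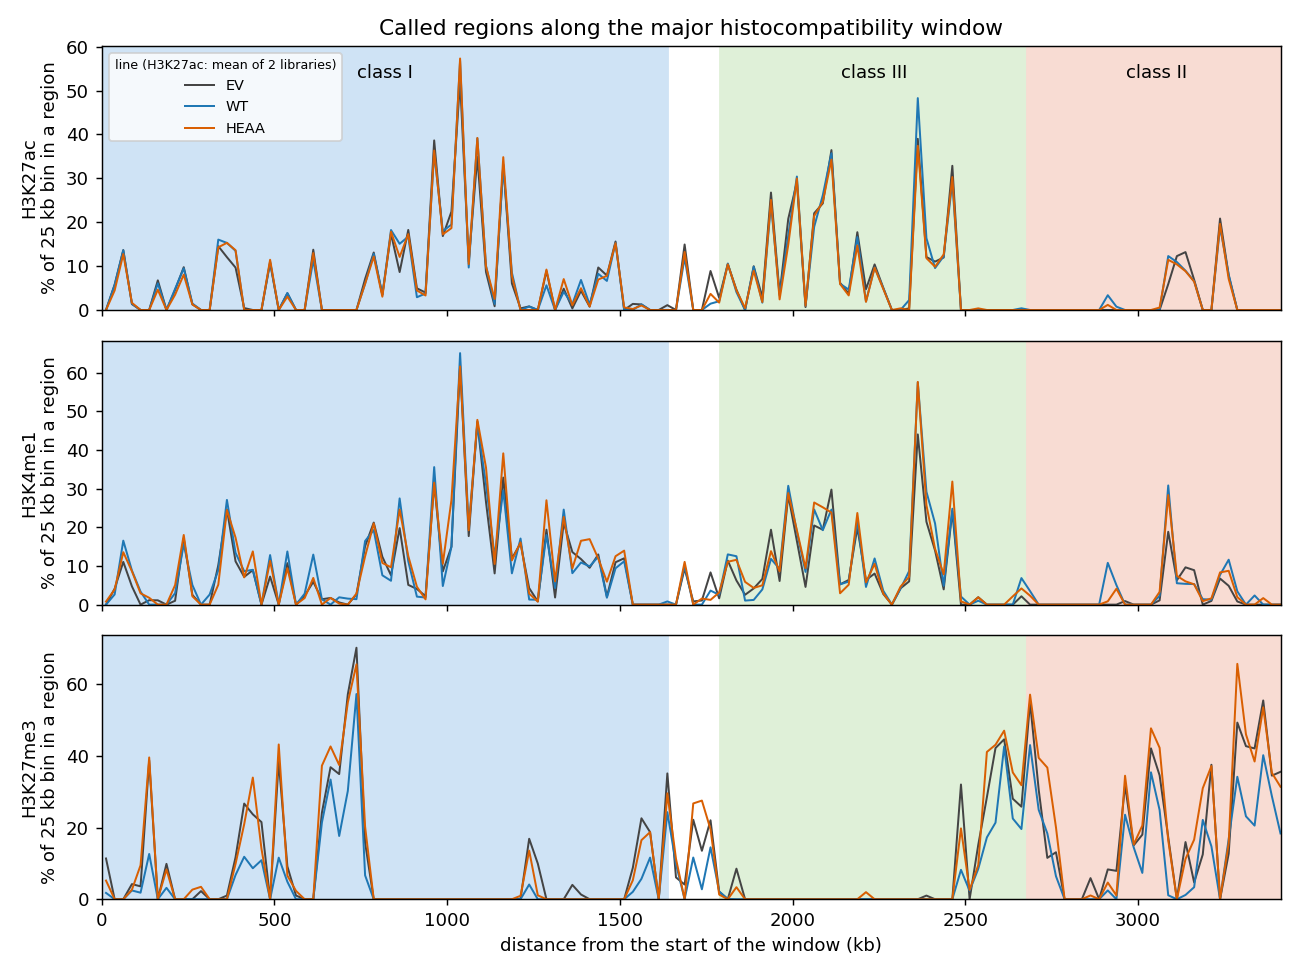
Percentage of each 25 kb bin inside a called region (vertical axes) against the distance from the start of the window in kb, for H3K27ac (mean of 2 libraries), H3K4me1 and H3K27me3, with 1 coloured line per cell line and shading for the classes. H3K27ac and H3K4me1 are highest in the same parts of class I and class III, and H3K27me3 is high at the end of class III and varies over class II, with bins at 0 between its high bins. The highest single H3K27me3 bin of EV lies in class I, at 70.2%, against at most 55.5% in class II.

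Merging the H3K27ac regions of all libraries gave 173 merged regions in the window. Of these, 92 (53.2%) were called in all 6 libraries, against 31.8% of the 81753 merged regions on all chromosomes and 31.2% on the rest of chromosome 6. The count was 50 of 95 in class I (52.6%), 34 of 60 in class III (56.7%) and 6 of 13 in class II (46.2%). Another 31 (17.9%) were called in 1 library only, against 28.9% on all chromosomes. A larger share of the window's regions was thus shared by all libraries, in each class. These shares have no test, because regions are not replicates.

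Regions were ranked by fold enrichment, the authors' ratio of a region over its background. By mean rank over the libraries, class I was led by chr6:30708846-30713343, and by the mean of the rank as a percentage of the list by the next (2.71% and 2.58%). It had 10.95-fold, 12.1-fold and 10.2-fold in the number 1 libraries of EV, WT and HEAA and 17.1-fold, 13.2-fold and 12.7-fold in those of number 2. The region chr6:30292860-30295776 followed with 9.02-fold, 13.7-fold and 9.82-fold, then 23.1-fold, 16.2-fold and 13.1-fold. It lies in the 250 kb step from 30190 to 30440 kb, where H3K27ac coverage was 1.63% ± 0.287 (SD, n = 6) and H3K27me3 coverage 27.2% in EV. The next were chr6:30849251-30855158, chr6:30581977-30586696 and chr6:30522726-30526156, with folds from 8.26 to 18.7. The widest in class I were chr6:30649218-30656661 (7444 bp) and chr6:30783910-30791304 (7395 bp). Folds of different libraries are not on 1 scale, so their ranks within a list were used.

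In class III the best was a narrow region of 945 bp, chr6:32163707-32164651, with 9.51-fold, 13.3-fold and 13.0-fold in the number 1 libraries of EV, WT and HEAA, and 19.7-fold, 13.2-fold and 13.9-fold in those of number 2. It was met by H3K4me1 in HEAA only, and is the last region called in all 6 libraries before the long unacetylated end of class III. The region chr6:32119782-32123197 had folds from 9.56 to 16.6, and the regions chr6:31701950-31708914, chr6:31619253-31621576 and chr6:31938857-31941421 had folds from 6.23 to 19.1. Class III also held the widest of the window, chr6:32046268-32056417 (10150 bp), followed in that class by chr6:31787472-31795842 (8371 bp).

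By mean rank of fold over the libraries, the H3K27ac region that led the whole window lay in class II, the class with the least acetylation. It was chr6:32934619-32942828, 8210 bp wide, with 15.1-fold, 14.6-fold and 15.0-fold in the number 1 libraries of EV, WT and HEAA and 22.8-fold, 21.7-fold and 19.0-fold in those of number 2. On average it stood in the top 0.261% of a list by fold. It ranked 8th in the second WT library and 17th in the second HEAA library. It was passed by chr6:30292860-30295776 in the second EV library (23.1-fold), and by chr6:30849251-30855158 and chr6:30581977-30586696 in the first WT library (15.0 and 14.7-fold). Nothing was acetylated beyond it, over the remaining 172 kb to the HLA-DPB1 edge. The other class II regions called in all libraries were chr6:32820189-32823147 (7.01 to 12.7-fold), chr6:32811096-32813084 (5.19 to 11.7-fold), chr6:32861561-32863570 (3.78 to 9.28-fold), chr6:32805433-32806766 (5.06 to 8.77-fold) and chr6:32781474-32785553 (4.35 to 6.42-fold). All 6 lie in the stretch chr6:32781474-32942828.

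**Figure D3:**
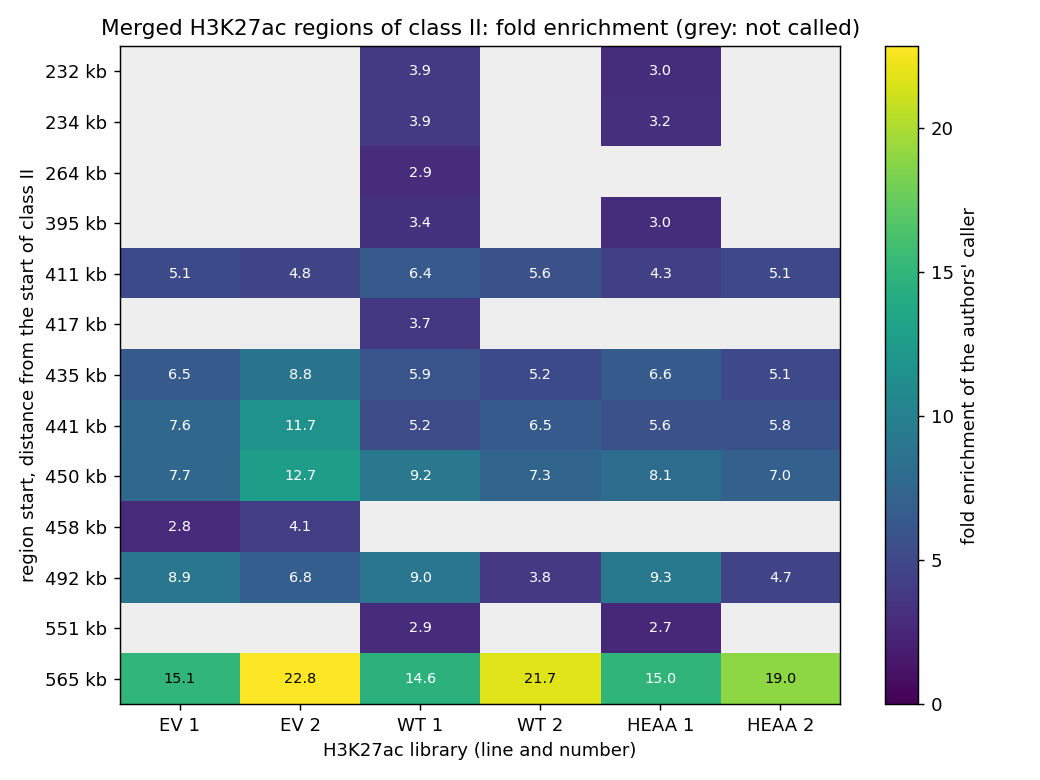
Fold enrichment given by the authors' caller (colour and printed value) for the 13 merged H3K27ac regions of class II (rows, by distance of the start from the start of class II in kb) in the 6 libraries (columns); grey cells were not called. The last row has 14.6-fold to 22.8-fold and is the highest in every library; 6 rows are filled in all columns, and 4 hold only the number 1 libraries of WT and HEAA.

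The second comparison asked whether UTX changed the active mark. No difference beyond the spread of libraries was found. H3K27ac coverage of the window was 6.62% ± 0.0112 in EV, 6.61% ± 1.47 in WT and 6.42% ± 2.37 in HEAA (SD, n = 2 each). The 4 libraries of the UTX lines differed from the 2 of EV by -0.108 percentage points in the window, 0.107 in class I, -0.365 in class III and 0.0253 in class II. Exact two-sided permutation tests gave p = 0.933, 0.867, 0.867 and 0.933, and an adjusted p of 0.933 for each. The smallest p of this design is 0.0667, so it cannot reach 0.05. WT minus HEAA was 0.196 points in the window (exact permutation p = 1, smallest possible 0.333).

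The direction of each of these differences depended on the library number. In number 1 the UTX lines were above EV by 1.26 points in the window, 1.32 in class I, 1.90 in class III and 0.688 in class II. In number 2 they were below it, by -1.47, -1.10, -2.63 and -0.637 points. The rest of chromosome 6 moved the same way, by 0.448 and -0.560 points. WT minus HEAA also turned in the window, from -0.441 in number 1 to 0.833 in number 2. WT minus HEAA kept its sign in class II (0.168 and 0.122 points) and class III (0.0773 and 1.17 points), and turned in class I (-0.837 and 0.944).

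At the level of single regions, none of the 173 was called in all 4 libraries of the UTX lines and in no EV library, a pattern that 0.541% of merged regions show on all chromosomes. The reverse pattern was found once (0.578%), against 0.91% on all chromosomes. The region is chr6:32828460-32829550 in class II, 1091 bp wide, with 2.79-fold and 4.15-fold in the EV libraries, and H3K4me1 was called there in all 3 lines. It ranked only 52220 and 29552 by fold in those lists. Both counts are near the background. Leaving out a library loosens either pattern, so a count can then stay or rise but not fall. Lost regions numbered 8 without the first EV library and 4 without the second. Gained regions numbered 1 without the first EV library, 1 without the second and 2 without the second HEAA library. The shares of these looser patterns over all chromosomes are not given here, so these counts are not read against a background.

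A pair of other patterns was counted, chosen after their values were seen, and in the window both were no more frequent than on all chromosomes. All 3 number 1 libraries and none of number 2 called 11 regions (6.36%), against 8.06% on all chromosomes, and the reverse occurred 0 times. The number 1 libraries of WT and HEAA alone called 14 regions (8.09%), against 9.02% on all chromosomes. Of these 14, 6 lay in class I, 4 in class III and 4 in class II, where they were 4 of 13 regions. The class II members were chr6:32602487-32603392 (3.90 and 2.98-fold in WT and HEAA), chr6:32603711-32604530 (3.92 and 3.19-fold), chr6:32764723-32765872 (3.37 and 2.96-fold) and chr6:32920523-32920780 (2.90 and 2.66-fold). H3K4me1 met the first pair in the WT line only. No number 2 library called any of them.

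The third comparison concerned the repressive mark, and its order of classes was the reverse. H3K27me3 covered 21.2% of class II in EV, 14.2% in WT and 24.1% in HEAA. It covered 8.21%, 4.26% and 8.02% of class I and 6.46%, 4.11% and 6.69% of class III. Class II was thus the highest in each of the 3 lists, at 2.62, 2.49 and 2.83 times the coverage of all chromosomes in EV, WT and HEAA. The rest of chromosome 6 was lower than every class, at 5.42%, 3.16% and 5.90%, and all chromosomes had 8.12%, 5.72% and 8.53%. Against all chromosomes, class III was lower in each list (0.796, 0.718 and 0.785 times) and class I was 1.01, 0.746 and 0.941 times. With 1 list per line there is no test. The regions were many and short: class II held 159, 148 and 168 of them, with median widths of 679, 534 and 742 bp. Their enrichment was low. In class II the median fold was 2.49, 2.65 and 2.40 and the median −log10 q 1.77, 1.55 and 1.77. No H3K27me3 region of any class or line had a −log10 q of at least 5, so these values rest on weak calls.

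The WT line had less H3K27me3 than EV in all 3 classes. The HEAA line had slightly less than EV in class I and more in class III and class II. The ratio of WT to EV coverage was 0.519 in class I, 0.635 in class III and 0.671 in class II. The ratio was 0.584 on the rest of chromosome 6 and 0.704 on all chromosomes, so WT was lower outside the window too. The ratio of HEAA to EV was 0.978, 1.04 and 1.13 in the 3 classes, 1.09 on the rest of the chromosome and 1.05 on all chromosomes. With lists of equal length, HEAA to EV was 0.924 in class I, 0.945 in class III and 1.10 in class II, so the class III value fell below 1. These values share the EV list. The WT list was also shorter. With lists of equal length the WT to EV ratios were 0.549, 0.676 and 0.726 in class I, class III and class II. Depth, which is unknown, cannot be told apart from the mark itself.

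**Figure D4:**
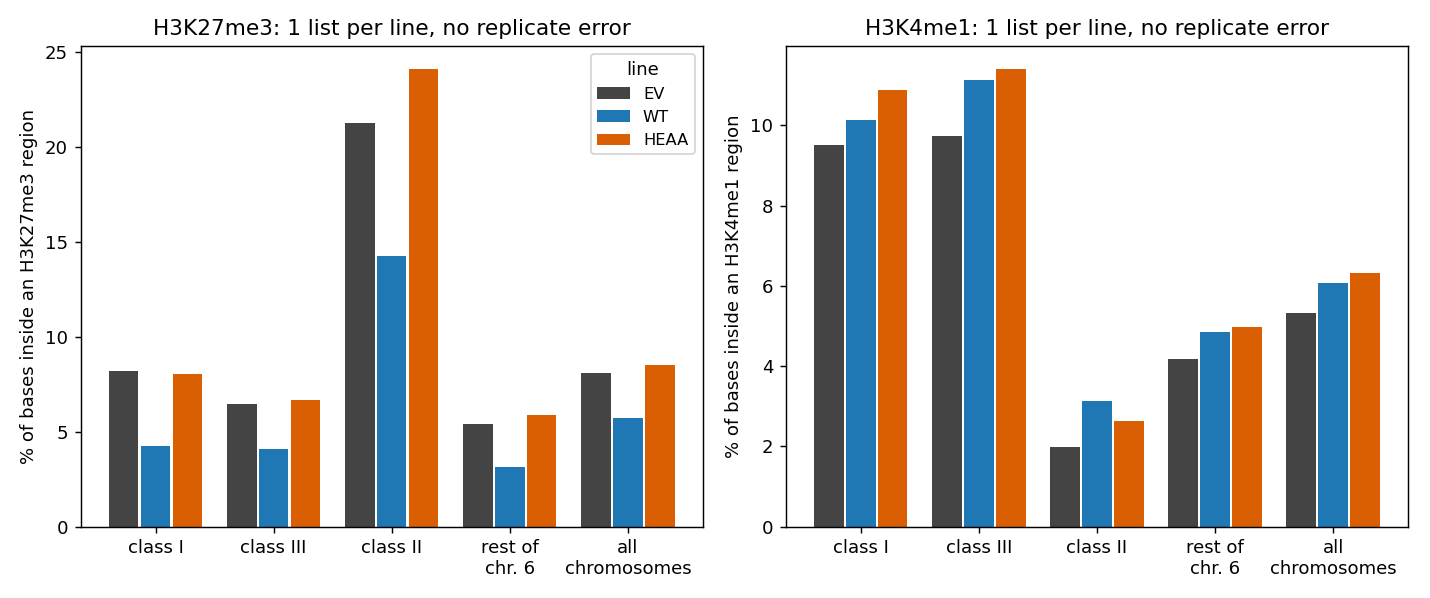
Percentage of bases inside an H3K27me3 region (left) or an H3K4me1 region (right), by segment, for the rest of chromosome 6 and for all chromosomes; bars are the single lists of EV, WT and HEAA and have no error. H3K27me3 is highest in class II (21.2%, 14.2% and 24.1%), where H3K4me1 is lowest (1.98%, 3.12% and 2.64%), and WT is the lowest H3K27me3 bar in each set.

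Region by region, WT called an H3K27me3 region at 197 of the 372 EV regions of the window (53.0%), against 51.1% on all chromosomes. HEAA did so at 257 (69.1%), against 63.7%. In class II the counts were 98 and 118 of 159 (61.6% and 74.2%), in class I 55 and 78 of 118 (46.6% and 66.1%), and in class III 36 and 44 of 71 (50.7% and 62.0%). The share kept in WT was near the background in the window as a whole. The share was highest in class II, where the mark was also densest.

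The widest H3K27me3 regions of the EV list were also followed, so EV holds all their bases by choice. WT kept a smaller share of these bases than HEAA, with an exception at the start of class II. The values come from the same lists as the coverage, so they are no separate evidence. In class I, chr6:30408994-30419655 was 10662 bp wide in EV (2.70-fold), and 61.8% of its bases were in a WT region and 84.5% in a HEAA region. Its neighbour chr6:30424985-30434208 (9224 bp, 3.59-fold) kept 84.8% and 93.6%, and chr6:30134688-30137722 (3035 bp) kept 35.6% and 81.7%. In class III, chr6:32305002-32309553 (4552 bp) kept 79.1% and 91.1%, chr6:32254557-32257167 (2611 bp) 64.6% and 100%, and chr6:32316536-32319103 (2568 bp) 51.4% and 62.7%. In class II, chr6:33052042-33057765 (5724 bp) kept 87.9% and 100%, and chr6:32968398-32973091 (4694 bp) 44.8% and 85.0%. The exception was chr6:32373814-32377878 (4065 bp), at the start of class II, with 85.7% in WT and 85.2% in HEAA. None of these 9 regions overlapped H3K27ac in any library.

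H3K4me1 followed H3K27ac in its distribution. It covered 9.50%, 10.1% and 10.9% of class I in EV, WT and HEAA, 9.73%, 11.1% and 11.4% of class III, and 1.98%, 3.12% and 2.64% of class II. On the rest of chromosome 6 it covered 4.17%, 4.86% and 4.96%, which lies between class II and the other classes. Class II was thus the only class with less H3K4me1 than the rest of the chromosome, in all 3 lists. The ratio of WT to EV was 1.07 in class I, 1.14 in class III and 1.57 in class II, against 1.14 on all chromosomes. The ratio of HEAA to EV was 1.145, 1.17 and 1.33, against 1.185. Both class I ratios fell below 1 (0.673 and 0.861) with regions of −log10 q of at least 5, a setting that left at most 1 class II region per line. The class II ratios rest on 22, 29 and 25 regions and on 14.8, 23.3 and 19.6 kb.

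Of the 293 EV regions of H3K4me1 in the window, WT met 228 (77.8%), against 81.1% on all chromosomes, and HEAA met 244 (83.3%), against 83.8%. In class II these were 16 and 17 of 22 (72.7% and 77.3%). In the other direction, EV met 15 of the 29 WT regions of class II (51.7%, against 68.0% on all chromosomes) and 15 of the 25 HEAA regions (60%, against 66.7%). All 4 class II shares were below those of all chromosomes, on small counts.

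The marks were next compared at the same bases. None of the 92 regions acetylated in all libraries overlapped H3K27me3 in any line, which allows a share of up to 3.26% (3 of 92), by counting error only. On all chromosomes the share was 0.369%, 0.181% and 0.215% in EV, WT and HEAA, all below this limit. H3K4me1 was called at 82, 80 and 83 of the 92 (89.1%, 87.0% and 90.2%), against 95.8%, 94.6% and 95.03% on all chromosomes. It was called at 42, 43 and 43 of 50 in class I, at 32, 31 and 32 of 34 in class III, and at 6, 5 and 6 of 6 in class II. In WT the class II region without it was chr6:32811096-32813084.

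Regions acetylated in all 6 libraries but without H3K4me1 in any line numbered 5. These were chr6:29854637-29856795, chr6:31152913-31155183, chr6:31164936-31166558 and chr6:31239306-31240448 in class I, and chr6:31697075-31698058 in class III. They were named after their values were seen. The share of such regions over all chromosomes is not given here, so the count is not read as a trait of the window. Counted in bases, H3K4me1 lay on 49.7% of the EV bases acetylated in both libraries in class I, 43.7% in class III and 16.4% in class II, against 60.7% on the rest of chromosome 6. The low share in class II rests on few regions, of which the 8210 bp one is the widest.

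The distance between acetylated and repressed chromatin was lowest in class II by its median. The median distance from a region acetylated in all libraries to the nearest H3K27me3 region was 11.7 kb in EV, 12.6 kb in WT and 10.8 kb in HEAA in class II. It was 46.6, 63.1 and 61.1 kb in class I, and 102, 150 and 78.3 kb in class III. The medians rest on 6 regions in class II, 50 in class I and 34 in class III. Class II is also where H3K27me3 was densest, and no such distance is given for other parts of the genome. The closest pairs were not in class II: the smallest EV distance was 1.68 kb in class I, 3.01 kb in class III and 8.41 kb in class II. Across the 137 bins of 25 kb, H3K27ac and H3K4me1 coverage had a Spearman rho of 0.833 in EV, 0.808 in WT and 0.824 in HEAA. H3K27ac and H3K27me3 had a rho of -0.600, -0.597 and -0.665. The bins share their libraries and neighbouring bins share regions, so these are descriptions with no test.

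The longest stretches without H3K27ac in any library lay in class II. The first, chr6:32370001-32602486, spans the opening 232 kb of the class, and H3K27me3 covered 12.3%, 9.84% and 16.5% of it in EV, WT and HEAA. The second, chr6:32942829-33115000, spans the closing 172 kb up to the HLA-DPB1 edge, with 39.6%, 26.4% and 41.6%. In class III, chr6:32223465-32361689 (138 kb) had 31.5%, 23.6% and 36.9%, and chr6:32164652-32223277 (58.6 kb) had 17.0%, 5.18% and 11.3%. In class I, chr6:30313709-30456726 (143 kb) had 41.8%, 29.2% and 45.2%. The other, chr6:31240449-31324278 (83.8 kb), had 13.8%, 6.66% and 11.8% and no H3K4me1 region, and ends just before the edge at HLA-B. WT had the lowest H3K27me3 share in each of these 6 stretches.

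Parts of class II had no region in any list. The longest was chr6:32452307-32542748 (90.4 kb), followed by chr6:32561586-32591441 (29.9 kb). Both lie inside the opening unacetylated stretch of 232 kb, chr6:32370001-32602486. The H3K27me3 shares of that stretch, and the class II percentages, count these bases too. The longest in class III was chr6:31942662-31996940 (54.3 kb) and in class I chr6:29966762-30012315 (45.6 kb). HLA haplotypes differ in sequence and, in the DR part of class II, in gene number, and no list holds a haplotype contig (0 in all). The sources used here do not give how reads with several matches were handled, and the part of mappability in these gaps was not tested. Over each whole class, 71.2% of class I, 70.0% of class III and 61.2% of class II bases were in no region of any list, against 83.0% of the rest of chromosome 6.

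The edges were read in the same way. The first acetylated region of class I, chr6:29719828-29721497, begins 29.8 kb inside the HLA-F edge and was called in all libraries at 3.93 to 4.95-fold. The last, chr6:31324279-31324831, lies 5.17 kb before the edge at HLA-B and was called only in the second EV library, at 4.82-fold. Between class I and class III, chr6:31367339-31371999 (4.24 to 8.38-fold) and chr6:31464802-31465959 (2.85 to 4.20-fold) were called in all libraries, and chr6:31461813-31464067 in all except the first WT library.

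The last comparison concerned UTX and MLL4 themselves. There were 9 peaks in the window, 7 in class I and 2 in class III, with none in class II. The UTX list held 0 in EV (of 31), 3 in WT (of 2566, 0.117%) and 4 in HEAA (of 2855, 0.140%). The MLL4 list held 0 in EV (of 133), 0 in WT (of 898) and 2 in HEAA (of 1125, 0.178%). The window makes up 0.116% of the span of all chromosomes. The 9 peaks fall on 4 sites.

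At the first site UTX was called in both lines, at chr6:30068534-30068805 in WT (6.41-fold, rank 609 of 2566) and chr6:30068511-30068744 in HEAA (5.90-fold, rank 958 of 2855). All 6 H3K27ac libraries called a region over it, with 5.93, 10.2 and 7.51-fold in number 1 and 7.50, 7.01 and 5.84-fold in number 2 for EV, WT and HEAA. No UTX peak was called in EV at this site. At the second site UTX was called at chr6:30558963-30559130 in WT (5.88-fold) and chr6:30558909-30559134 in HEAA (7.21-fold), and MLL4 at chr6:30558959-30559134 in HEAA (6.40-fold, rank 574 of 1125). Only the 3 number 1 libraries had H3K27ac on these bases (4.48, 8.26 and 6.60-fold). The number 2 libraries called other parts of the merged region chr6:30556643-30560651, at 4.14, 3.45 and 4.07-fold.

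At the third site UTX was called at chr6:30778709-30778944 in WT (6.14-fold) and chr6:30778616-30778923 in HEAA (4.96-fold), with no MLL4 peak. Acetylation on these bases was called in the first WT and HEAA libraries (6.54 and 6.09-fold) and the second EV and WT libraries (5.82 and 5.55-fold). The fourth site, in class III, had HEAA peaks only, of UTX at chr6:32120956-32121181 (5.07-fold, rank 1591) and of MLL4 at chr6:32120853-32121074 (8.37-fold, rank 161). It lies in chr6:32119782-32123197, among the 5 most enriched H3K27ac regions of class III, which all libraries called, EV included (9.56 and 16.6-fold). The EV line, with no UTX peak, was thus acetylated at each of the 4 sites in at least 1 library. H3K27me3 was called at none of them in any line. H3K4me1 overlapped the peaks of the second site in EV and WT, and the HEAA peak of the third site in all lines. The nearest H3K4me1 regions lay 121 to 227 bp from the peaks of the first site and 412 to 587 bp from those of the fourth. These distances set peaks of mnase samples against regions of sonic samples.

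UTX peaks were found at few of the window's acetylated regions. WT had one at 3 of the 92 called in all libraries (3.26%, 95% Wilson interval 1.12% to 9.15%), against 7.75% on all chromosomes. HEAA had one at 4 (4.35%, 1.70% to 10.7%), against 8.75%, and an MLL4 peak at 2 (2.17%, 0.598% to 7.58%), against 3.66%. MLL4 in WT had 0 of 92 (upper Wilson limit 4.01%), against 2.88%. Each interval or limit holds the share of all chromosomes. The intervals treat regions as independent and cover counting error only, with 1 list per line. They therefore cannot decide whether these peaks are fewer in the window, and no conclusion is drawn from them.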

How the data were processed

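Peaks and regions were analysed as deposited. Per the submitters' processing notes, MACS2 and the builds hg19 and GRCh37 were used. The sources used here do not give the aligner, the filters or the treatment of multiply mapped reads and duplicates. UTX and MLL4 lists are narrow and histone lists broad, per the deposited column layout. Fold enrichment is the authors' linear ratio, used only within a list, and the deposited −log10 q-value column served for filters. The deposited score and the other columns were not used. Of 24 samples, 18 have a list, and the 6 inputs were not used here.

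Lists were intersected (at least 1 bp) with own code in Python 3.11.15, NumPy 2.4.6 and pandas 2.3.3, tested on simulated data (50 runs, 0 failures), and plotted with matplotlib 3.10.9. Chromosome names were brought to 1 form. Depth is unknown, so no precision can be given for a list. Groups and numbers come from the titles. H3K27ac coverage was compared over libraries with exact sign-flip or permutation tests. Named regions are all UTX and MLL4 peaks, all regions gained or lost with both constructs and, per class, the 5 best-ranked and 2 widest H3K27ac regions of all 6 libraries, the 3 widest EV H3K27me3 regions and the 2 longest unacetylated stretches. Members and lists were chosen with earlier results of these data known. Alternatives covered the q threshold, list length, edges, replicate block and left-out libraries. Regions were not assigned to genes, because an annotation of hg19 was not used here.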

Additional observations from a re-analysis of the deposited data

How the results depend on the processing

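The differences between classes and from the rest of chromosome 6 kept their direction in each alternative run. Without any 1 library the smallest possible adjusted p of the exact test is 0.0625, so none passed. The differences then ran from 2.11 to 2.44 points for class III minus class I, from 7.02 to 7.60 for class III minus class II, from 4.66 to 5.16 for class I minus class II, and from 4.14 to 4.43 for the window minus the rest of the chromosome.

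The differences between the UTX lines and EV turned with the settings; the cause was not tested. With regions of −log10 q of at least 5 they were -0.347 in class I and -0.246 in class II, and with lists of equal length -0.0577 and -0.0730. Without any 1 library they ran from -0.633 to 0.483 in the window, -0.518 to 0.751 in class I, -0.995 to 0.448 in class III and -0.225 to 0.269 in class II, and WT minus HEAA ran from -1.48 to 1.87. Number 1 alone gave 1.26 in the window, 1.90 in class III and -0.441 for WT minus HEAA, and number 2 alone gave -1.10 in class I and -0.637 in class II. The labels do not say what a number shares between lines. With the number as a replicate block, the window difference was -0.108 (exact permutation p = 0.889), and no call changed for the classes.

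Without any 1 library the number of gained regions ran from 0 to 2 and that of lost regions from 1 to 8, and lists of equal length left 0 lost. Leaving out a library loosens both patterns, and the shares of the looser patterns over all chromosomes are not given here. The ratio of HEAA to EV in class III H3K27me3 was 0.945 with lists of equal length and 0.981 with edges moved inward by 50 kb. In class I H3K4me1, WT to EV was 0.673 with the stricter q and 0.966 with equal lists, and HEAA to EV was 0.861 with the stricter q. In class II the stricter q left 1 region each in EV and WT (ratio 3.24) and none in HEAA (ratio 0). It left no H3K27me3 region in any class or line, so that ratio could not be computed.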
